A study of Mus musculus with 2 samples.

Results

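The cells described here are the Krt15+Sox9+ keratinocytes of healing mouse skin, selected by UMI counts (unique molecules sequenced) from 2 single-cell RNA libraries. A cell was taken if it held at least 2000 UMIs and at most 15% mitochondrial UMIs. It also had to hold at least 20 UMIs of the basal keratins Krt5 and Krt14 together, at least 3 of Krt15 and at least 1 of Sox9. Cells with 3 or more UMIs of Krt79, a keratin of the upper follicle, were left out. So were cells with more than 2 UMIs of the cycling genes Mki67 and Top2a, any UMI of the leukocyte gene Ptprc, or 20 or more of the collagen genes Col1a1 and Col1a2. This gate held 83 of the 26551 deposited cells, 34 of 12800 in WT_LW and 49 of 13751 in TLR9agonist_LW.

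Both libraries came from wild-type male C57BL/6J young adult mice with a circular dorsal wound of 1.8 cm. By the sample labels the wounds of WT_LW received PBS, although a legend of the study names a control oligonucleotide for this group, and those of TLR9agonist_LW received the TLR9 agonist ODN2395, on days 0, 3 and 6. Skin was collected 2 days after the scab had come off, its epidermis and dermis were separated and digested with enzymes, and the cells of several mice were pooled for each library. Each group is therefore 1 library, no difference between them was tested, and the agonist cannot be told apart from the mice or the preparation. Intervals below are exact 95% intervals for counting error only.

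The bulge is the permanent lower part of the outer root sheath, where hair follicle stem cells rest between hair cycles. Sox9 and Lhx2 are transcription factors that maintain these cells, Krt15 is the keratin by which they are often recognised, and Cd34 and Lgr5 are surface proteins used to sort them. After a wound, follicle cells move into the new epidermis and lose bulge genes while taking up genes of wound keratinocytes. Krt15 is also made by some basal cells of the epidermis, and Sox9 by much of the outer root sheath.

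The promoters of genes highest in the gated cells are shown so that they can be read beside their levels. Among the 12 genes furthest above the other basal keratinocytes of the same library, 8 had an entry in the RefSeq promoter table of GRCm38.p6, and Krt15, Sostdc1, Nfib and Thbs1 had none. Each sequence runs from 250 bases before to 50 bases after the gene's start, on the minus strand, and capitals mark the letters AGGAAG, the core bound by Ets factors. Cxcl14 lies at chr13:56296502-56296801 and Sox4 at chr13:28953650-28953949.
Cxcl14: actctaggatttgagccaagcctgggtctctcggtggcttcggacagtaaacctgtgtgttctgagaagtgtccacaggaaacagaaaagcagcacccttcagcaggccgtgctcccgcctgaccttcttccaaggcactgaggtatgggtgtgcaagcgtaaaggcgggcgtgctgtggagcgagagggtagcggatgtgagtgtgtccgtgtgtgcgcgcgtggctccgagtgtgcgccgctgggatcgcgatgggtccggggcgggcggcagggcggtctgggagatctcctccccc
Sox4: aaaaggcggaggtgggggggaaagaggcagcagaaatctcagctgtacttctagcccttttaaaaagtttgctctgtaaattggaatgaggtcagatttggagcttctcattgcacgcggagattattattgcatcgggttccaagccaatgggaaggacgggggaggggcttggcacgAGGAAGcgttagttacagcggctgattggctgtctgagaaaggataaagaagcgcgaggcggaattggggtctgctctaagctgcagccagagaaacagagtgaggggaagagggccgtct
On either strand, AGGAAG was found in 4 of the 10 promoters of the 8 genes and in 35.4% of all 32851 promoters. The Sox letters ACAATG were found in 1 of the 10, of Pdgfa, and in 12.6% of all. The Lhx letters TAATTA and the TATA box TATAAA were in none of these windows, against 5.29% and 13.6% of all.

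The gated cells held 648076 UMIs in WT_LW and 936869 in TLR9agonist_LW. Their median was 12174.5 UMIs (3813 to 80001) in WT_LW and 18470 (3372 to 45895) in TLR9agonist_LW, with a median of 3.62% and 2.86% mitochondrial UMIs. In WT_LW, 1 cell held 12.3% of all gated UMIs. The libraries shared 47 barcodes, and 0 of the gated cells carried one of them.

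Free RNA was present in both libraries and moved with them. T cells, which do not make Krt14, held a UMI of it in 54.3% of cells in WT_LW and 89.1% in TLR9agonist_LW, at median depths of 4679.5 and 5026 UMIs. The same cells held Krt15 in 4.09% and 2.48% and Sox9 in 2.94% and 7.07%. Gated cells carried a median of 6 collagen UMIs in WT_LW and 11 in TLR9agonist_LW, and 29 of the 49 in TLR9agonist_LW lay between 10 and the limit of 20, against 9 of 34. The part of free RNA in the differences between libraries was not tested.

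Gated cells made up 0.351% (0.243 to 0.490) of the cells within the depth and mitochondrial limits in WT_LW and 0.425% (0.314 to 0.561) in TLR9agonist_LW. The log2 ratio was 0.28 (−0.39 to 0.95), so a difference was not detectable at this depth. Among keratinocytes the shares were 11.0% (34 of 309) and 6.43% (49 of 762), for a log2 ratio of −0.77 (−1.44 to −0.10). The 762 keratinocytes of TLR9agonist_LW thus held more gated cells than the 309 of WT_LW, but a lower share. The direction of the first share depended on the gate: its log2 ratio was −0.29 when gated per 10000 UMIs, and −3.25 with a collagen limit of 5 UMIs, which left 8 cells and 1 cell.

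The positive limits of the gate moved in opposite directions between the libraries. Among basal keratinocytes below the Krt79 limit, at least 3 UMIs of Krt15 were held by 39.4% of 188 cells in WT_LW and by 13.2% of 629 in TLR9agonist_LW. At least 1 UMI of Sox9 was held by 43.6% and 60.9%. In WT_LW, Sox9 was found in 45.9% of the cells with Krt15 and in 42.1% of those below its limit; in TLR9agonist_LW these shares were 59.0% and 61.2%. At least 5 Sox9 UMIs were held by 11 of 74 cells with Krt15 (14.9%) and 10 of 114 (8.77%) of those below its limit in WT_LW, where the former were deeper, with medians of 18551 and 13761 UMIs. In TLR9agonist_LW the shares were 25.3% (16.4 to 36.0) and 15.2% (12.3 to 18.5), and the intervals overlapped in both libraries. The gate used these genes, so the shares are a description.

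Many cells sat close to the limits. Exactly 1 Sox9 UMI was held by 12 gated cells in each library, and 3 or 4 Krt15 UMIs by 8 in WT_LW and 15 in TLR9agonist_LW. Just outside, 3 and 8 cells had Sox9 but only 2 Krt15 UMIs, and 40 and 34 cells had Krt15 but no Sox9. The cycling limit removed 23 and 25 cells that met both positive limits, and the Krt79 limit 13 and 7. The median gated cell held 11.5 Krt15 and 2 Sox9 UMIs in WT_LW, and 9 and 3 in TLR9agonist_LW.

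Of 10 further bulge markers (Cd34, Lhx2, Lgr5, Nfatc1, Tcf7l1, Postn, Fgf18, Itgb6, Npnt and Ptn), the median gated cell held 3 in each library and the median other basal keratinocyte 2. Other basal keratinocytes are those that met every limit but Krt15 or Sox9 (154 and 580 cells). They are basal by the Krt5 and Krt14 limit only, and many held UMIs of suprabasal keratins. Thinned to 2000 UMIs, Krt1 was in 79.2% and 81.2% of them, against 47.1% and 44.9% of gated cells. Free Krt1 is part of these shares, since T cells thinned alike held it in 23.7% and 53.7%, the latter above the gated share. Krt5 was in 70.8% and 54.8% of other basal cells, against 94.1% and 95.9% of gated cells. Each contrast with other basal cells may therefore be in part one with differentiating cells. After each cell was thinned to 2000 UMIs, 3 or more markers were present in 8 of 34 and 5 of 49 gated cells, against 0 of 154 and 2 of 580 other basal cells. Without thinning, 3 or more were present in 24 of 34 (70.6%) and 29 of 49 (59.2%) gated cells, against 40 of 154 and 133 of 580 other basal cells. UMIs of more of these markers were thus found in gated than in other basal cells, at full and at equal depth. Free RNA can add to this number. Thinned to 2000 UMIs, Postn was in 52.9% and 46.9% of gated cells and in 38.8% and 45.6% of T cells. The part of free RNA in the number was not tested, and a cell with no UMI of a marker may still make it.

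Lhx2 was the marker least blurred by free RNA. It was present in 7 of 34 gated cells (20.6%) in WT_LW and 6 of 49 (12.2%) in TLR9agonist_LW, with 37 and 13 UMIs, against 0.252% and 0.204% of T cells and 3 of 154 and 5 of 580 other basal cells. No Krt79-high keratinocyte carried it (0 of 61 and 0 of 46). Of the 11 and 13 keratinocytes with Lhx2 in all, 7 and 6 were inside the gate, and all 8 in the other basal class fell short on Krt15 while having Sox9.

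Of the surface markers used for sorting, Lgr5 lay above other basal cells and Cd34 did not stand clear of free RNA. Cd34 was found in 5 gated cells in WT_LW and 3 in TLR9agonist_LW, where 1 cell held 9 of the 11 UMIs. Its share was 14.7% and 6.12%, against 11.2% and 7.27% of T cells, and thinned to 2000 UMIs 0% and 4.08%, against 4.94% and 2.16%. Lgr5 was found in 14.7% and 12.2% of gated cells, against 1.30% and 1.55% of other basal cells, 0.421% and 3.30% of T cells and, in the cells with 20 or more collagen UMIs, 5.64% and 25.9%. These were 5 and 6 gated cells, and 2 and 1 after thinning to 2000 UMIs. Fgf18 had 1 UMI in WT_LW and 0 in TLR9agonist_LW, and a count of 0 does not exclude a low level. Since Lhx2, Lgr5 and Cd34 were each found in few of them, the cells are named by the genes that selected them and not as bulge cells.

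The summed levels of bulge markers gave the contrast with other basal keratinocytes of the same library, a contrast the gate itself set up. Ptn, a secreted growth factor, stood at 182 CPM (UMIs per 1000000 UMIs, 151 to 218) in WT_LW and 138 (115 to 164) in TLR9agonist_LW, against 41.0 and 22.3 in other basal cells. Npnt, a matrix ligand made by bulge cells, stood at 41.7 and 27.8 CPM against 3.02 and 2.67, although in TLR9agonist_LW 26.1% of T cells held it, and, thinned to 2000 UMIs, 14.8% of them against 4.08% of gated cells. Nfatc1, a factor of bulge quiescence, stood at 54.0 CPM (37.6 to 75.1) against 12.8 in WT_LW, and at 16.0 (8.96 to 26.4) against 12.6 in TLR9agonist_LW. In WT_LW, 17 of its 35 UMIs were in 4 cells with Lhx2, and the other gated cells stood at 30.3 CPM. Nfatc1 was also in 36.8% and 22.7% of T cells; thinned to 2000 UMIs it was in 11.8% and 2.04% of gated cells and 16.5% and 7.97% of T cells.

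**Figure D1:**
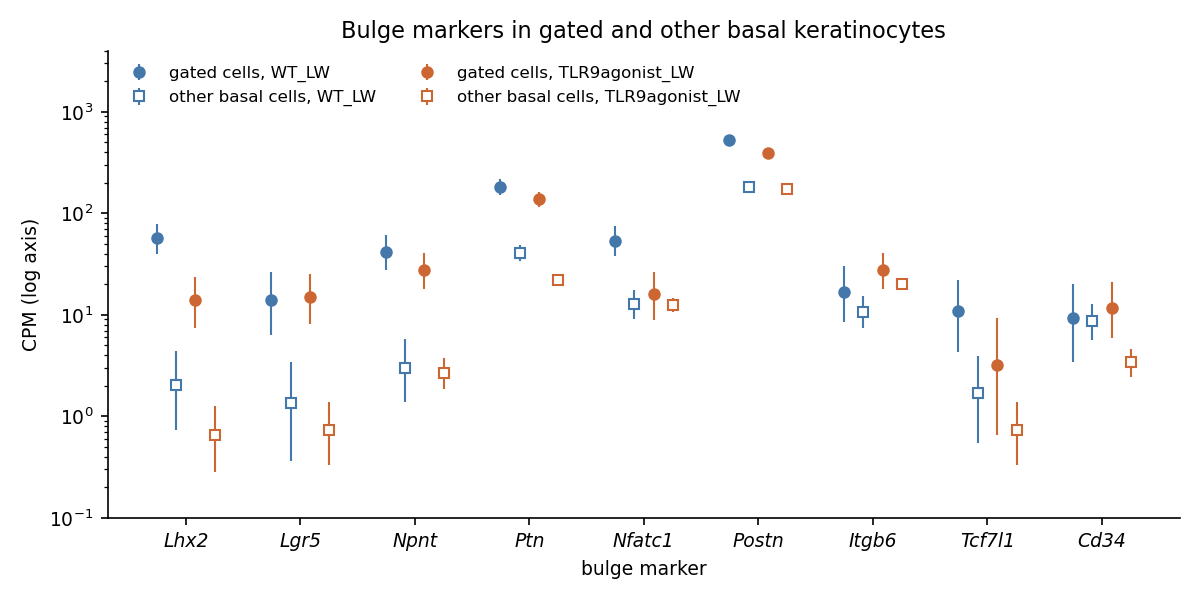
Summed level in CPM (log axis) of 9 bulge markers in gated cells (filled) and other basal keratinocytes (open) of each library, with exact 95% counting intervals; Fgf18, with 1 UMI in all gated cells, is left out. Lhx2, Npnt and Ptn are higher in the gated cells of both libraries, with Lhx2 at 57.1 and 13.9 CPM, while Cd34 in WT_LW is level with other basal cells.

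The cells with Lhx2 held fewer UMIs than the rest of the gate, with medians of 6686 against 16712 in WT_LW and 12148.5 against 19598 in TLR9agonist_LW. Krt15 stood at a median of 31.7 per 10000 UMIs against 6.08 in WT_LW and 12.8 against 3.57 in TLR9agonist_LW, and Sox9 at 9.45 against 1.05 and 5.55 against 1.77. The split uses Lhx2 and was chosen after its values were seen, so these values are a description.

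**Figure D2:**
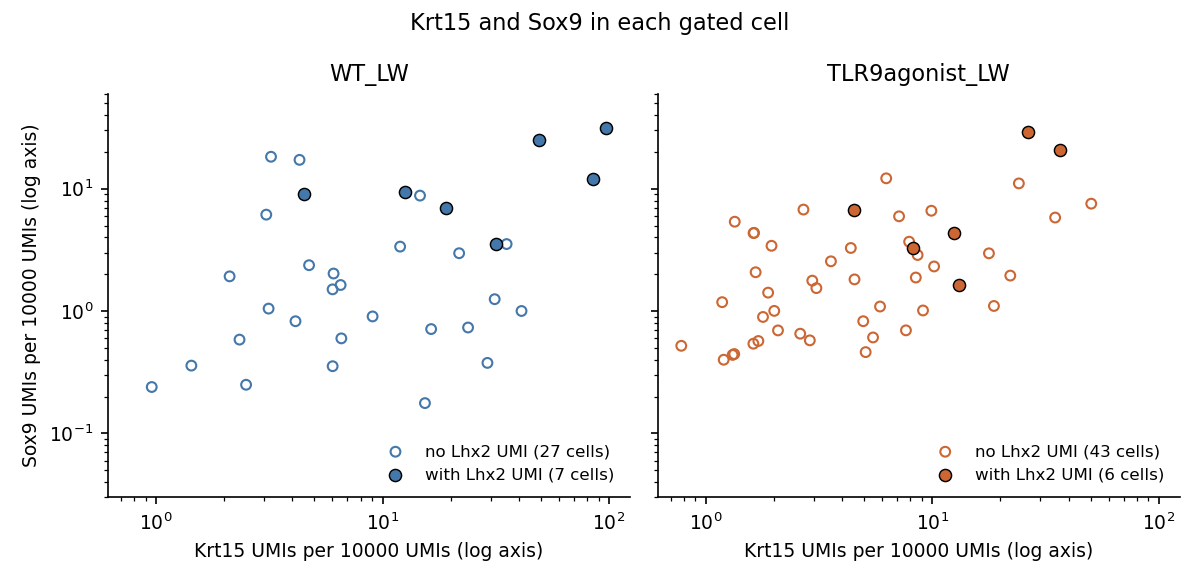
Krt15 and Sox9 UMIs per 10000 UMIs (log axes) in each of the 83 gated cells, by library; filled points are the 7 and 6 cells with a UMI of Lhx2. Most filled points lie towards the upper right, and the cells without Lhx2 spread down to Sox9 levels under 1 per 10000.

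To rank genes, 1 limit was used for both ends, at least 50 UMIs over all gated cells of a library, in each library. Of the 1442 genes that passed it, 35 (2.43%) were at least 1 log2 unit higher in the cells with Lhx2 in both libraries and 70 (4.85%) lower. Most gated UMIs came from the cells without Lhx2, 595032 of 648076 in WT_LW and 862388 of 936869 in TLR9agonist_LW, so a gene low in the Lhx2 cells passed this limit more readily than one high in them. The first 5 at the high end were Mllt4, Cxcl14, Actn1, Crip1 and Krt17, followed by Sox9, a selecting gene. The chemokine gene Cxcl14 stood at 2281 against 106 CPM in WT_LW and at 899.6 against 184 in TLR9agonist_LW. Krt17, a keratin of the outer root sheath and of wounds, stood at 2583 against 420.1 and 5478 against 1346 CPM. Nfib and Sox4, transcription factors that also stood above other basal cells, were among the first 10, with Sox4 at 415 against 104 and 483 against 155 CPM.

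The first 15 genes at the low end included Ly6a, Wnt4, Krtdap, Krt1 and Calm4 as well as Ndufa4l2, the peroxidase gene Gpx1 and Sat1, of polyamine breakdown. Sbsn, of the same suprabasal list as Krtdap, Krt1 and Calm4, went the other way. It ranked 11 at the high end, at 754 against 229 CPM in WT_LW and 443 against 148 in TLR9agonist_LW. Ly6a, a surface protein of basal epidermis, stood at 18.9 against 205 CPM in WT_LW and 26.9 against 369 in TLR9agonist_LW. Wnt4 stood at 18.9 against 381 and 13.4 against 166 CPM, and Krtdap, made as keratinocytes differentiate, at 0 UMIs against 787 and 7 against 604. Stfa1, Stfa3 and BC100530, protease inhibitors of the stefin A family, were also among the lowest; BC100530 stood at 113 against 9862 and 469.9 against 7439 CPM, and reads of this family may be split between near-identical copies. Part of this contrast in WT_LW came from 5 cells with 50 or more UMIs of Krt1 and Krt10, none of them with Lhx2: outside them lay 106 of the 787 Krtdap UMIs and 155 of the 228 Wnt4 UMIs.

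A second, small set of gated cells carried suprabasal keratins. At least 50 UMIs of Krt1 and Krt10, the keratins of spinous cells, were held by 5 cells in WT_LW and 2 in TLR9agonist_LW. These cells held 97.7% of the Krt1 and Krt10 UMIs of the WT_LW gate and 36.2% of all its UMIs, but 71.1% and 5.66% in TLR9agonist_LW. The median gated cell held 2 and 5 such UMIs. Any level summed over the gate in WT_LW leans on these cells.

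**Figure D3:**
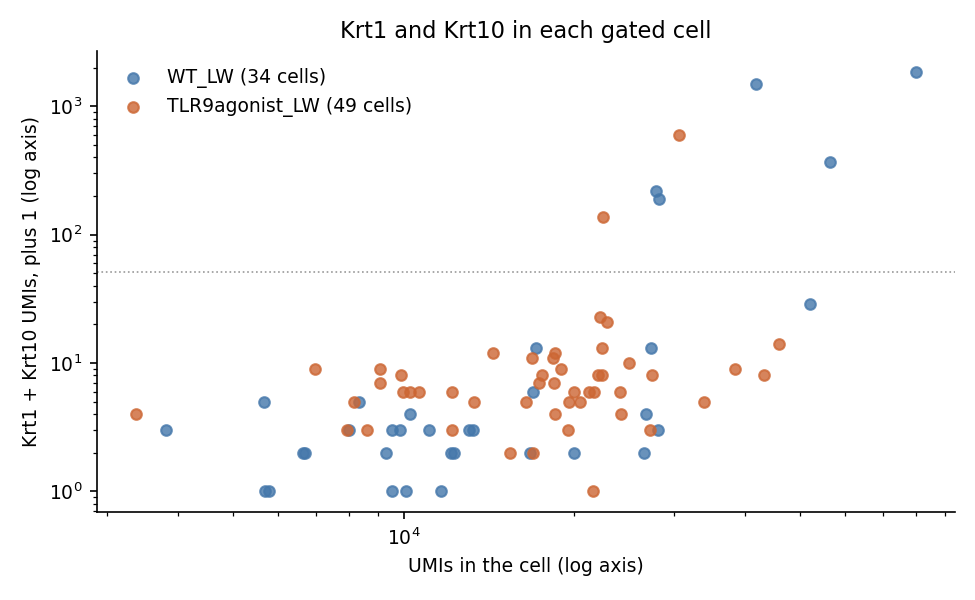
Krt1 and Krt10 UMIs (plus 1) against total UMIs of each gated cell, both on log axes; the dotted line marks 50 UMIs. The 5 cells of WT_LW above the line include the deepest gated cell, with 80001 UMIs.

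Relative to the median gene, 93 of 3425 genes were at least 1 log2 unit higher in gated than in other basal cells in both libraries (2.72%), and 51 were lower (1.49%). Since the gate set this contrast, the genes are given as its description. By the smaller of both ratios, and with at least 50 gated UMIs in each library, the first 12 were Cxcl14, Sostdc1, Sox4, Ptn, Nfib, Krt15 itself, Ptprs, Nfic, Thbs1, Pdgfa, Golim4 and Txnip. Cxcl14 was 2.37 and 3.03 log2 units higher in WT_LW and TLR9agonist_LW. Sostdc1, an inhibitor of BMP and Wnt signals, was 2.34 and 2.56 higher, and Nfib, a transcription factor of follicle stem cells, 2.43 and 1.96 higher. Sox4 was 2.11 and 2.53 higher, and Pdgfa, a growth factor for dermal cells, 1.53 and 1.85. In WT_LW, 1 cell held 31.2% of the Sostdc1 UMIs. The 7 cells with Lhx2 held 121 of the 184 Cxcl14 UMIs of WT_LW, and the other gated cells stood at 106 CPM against 53.1 in other basal cells.

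The lists of suprabasal and of wound keratinocyte genes had medians below other basal cells in both libraries, −1.20 and −2.63 log2 units for suprabasal and −1.44 and −2.37 for wound genes. Not all members lay below: Plaur, the urokinase receptor, stood at 0.94 and 0.77. Krt16, a stress keratin, had a median of 1.33 per 10000 UMIs in gated against 29.6 in other basal cells in WT_LW, and 3.14 against 47.7 in TLR9agonist_LW. Krt6a stood at medians of 4.06 against 18.3 and 4.05 against 22.3. The alarmin S100a9 was 3.57 and 3.41 log2 units lower, and the cornified envelope gene Sprr1a 3.13 and 3.67 lower. Areg, an EGF receptor ligand, was 1.08 and 1.16 lower.

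Between libraries, 3429 genes had at least 50 UMIs over the gated cells, and their median log2 ratio of TLR9agonist_LW to WT_LW was −0.08. Relative to that median, 168 genes (4.90%) were at least 1 log2 unit higher in TLR9agonist_LW and 185 (5.40%) at least 1 lower. Without that centring the split was 135 higher and 237 lower. The ratios at the lower and upper quartile were −0.39 and 0.36. These counts describe 2 libraries, not 2 conditions.

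Genes with 100 or more UMIs, at least 10 in each library, and no more than 20% of them in 1 cell were ranked, and 5 of the 12 highest encode heat shock proteins or their partners. The 12 were Hspb1, Hspa1b, Cyr61, Ddit4, Hsp90aa1, Cks2, Tnfaip3, Dnajb1, AY036118, Hmgn2, Hsph1 and Ifitm3. The small chaperone Hspb1 stood at 555 CPM (500 to 616) in WT_LW and 3582 (3462 to 3705) in TLR9agonist_LW, for a log2 ratio of 2.77 (2.62 to 2.93). Its median per cell was 3.52 (0 to 14.2) per 10000 UMIs in WT_LW and 26.5 (0.438 to 126) in TLR9agonist_LW, so the ranges overlapped while the median of TLR9agonist_LW lay above every WT_LW cell. Hspa1b, an inducible Hsp70 whose reads may be split with its near-identical copy Hspa1a, stood at 358 and 1950.1 CPM, for a log2 ratio of 2.53 (2.33 to 2.73).

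The other genes at this end had other roles. Cyr61, a matricellular protein, stood at 71.0 and 329.8 CPM, for a log2 ratio of 2.30 (1.85 to 2.78), and Ddit4, an inhibitor of mTORC1 induced by stress, at 23.1 and 104 CPM. Tnfaip3, which restrains NF-kB, stood at 54.0 and 178 CPM, a ratio of 1.81 (1.27 to 2.38). In their weakest alternatives the ratios of Cyr61 and Tnfaip3 were 0.75 and 0.65. The interferon-inducible Ifitm3 was present in 32 of 34 and 47 of 49 gated cells, at 537 and 1388 CPM, a ratio of 1.45 (1.28 to 1.63), or 0.96 without the 7 cells rich in Krt1 and Krt10.

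In the same ranking the 8 lowest were Ahnak2, Vdr, Iffo2, Barx2, Col7a1, Kcnq1ot1, Sppl3 and Foxn3. Vdr, the vitamin D receptor needed for hair cycling, stood at 140.4 CPM in WT_LW and 38.4 in TLR9agonist_LW, for a log2 ratio of −1.79 (−2.38 to −1.21). Col7a1, the collagen of anchoring fibrils, stood at 249.97 and 83.3 CPM, with an interval of the ratio from −1.91 to −1.10, and Barx2, a homeobox factor of the follicle, at 169.7 and 51.2 CPM. The scaffold gene Ahnak2 stood at −2.03 (−2.66 to −1.44), with a UMI in 30 of 34 and 19 of 49 cells. Iffo2 stood at −1.72, or −1.12 without the Krt1 and Krt10 cells and −0.11 in its weakest alternative. Kcnq1ot1 is a long noncoding RNA antisense to Kcnq1, and whether counting used strand is not given in the sources used here.

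Other basal keratinocytes showed ratios on the same side of 0 for 19 of these 20 genes. Their median gene had a log2 ratio of −0.39, so ratios are relative to it: Hspb1 stood at 1.80, Hspa1b at 1.77, Dnajb1 at 2.13 and Ahnak2 at −1.61. Hmgn2 stood at 0.00 (−0.30 to 0.30) in other basal cells, and its interval in gated cells ran from 0.96 to 2.07. Tnfaip3 stood at 0.52 (0.32 to 0.73) against 1.81. In their weakest alternatives the gated ratios of Hmgn2 and Tnfaip3 fell to 0.27 and 0.65. Vdr stood at −0.60 (−0.88 to −0.30) against −1.79. For 13 of the 20 genes, Hspb1, Hspa1b, Tnfaip3, Hmgn2 and Vdr among them, the counting intervals of both classes did not overlap. The counts of 19 and 13 have no share over all genes beside them, so they describe only these 20. The genes were picked for their ratios in the gated cells, which by itself makes a smaller ratio in the other class likely, and whether any library difference is particular to the gated cells was not tested.

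**Figure D4:**
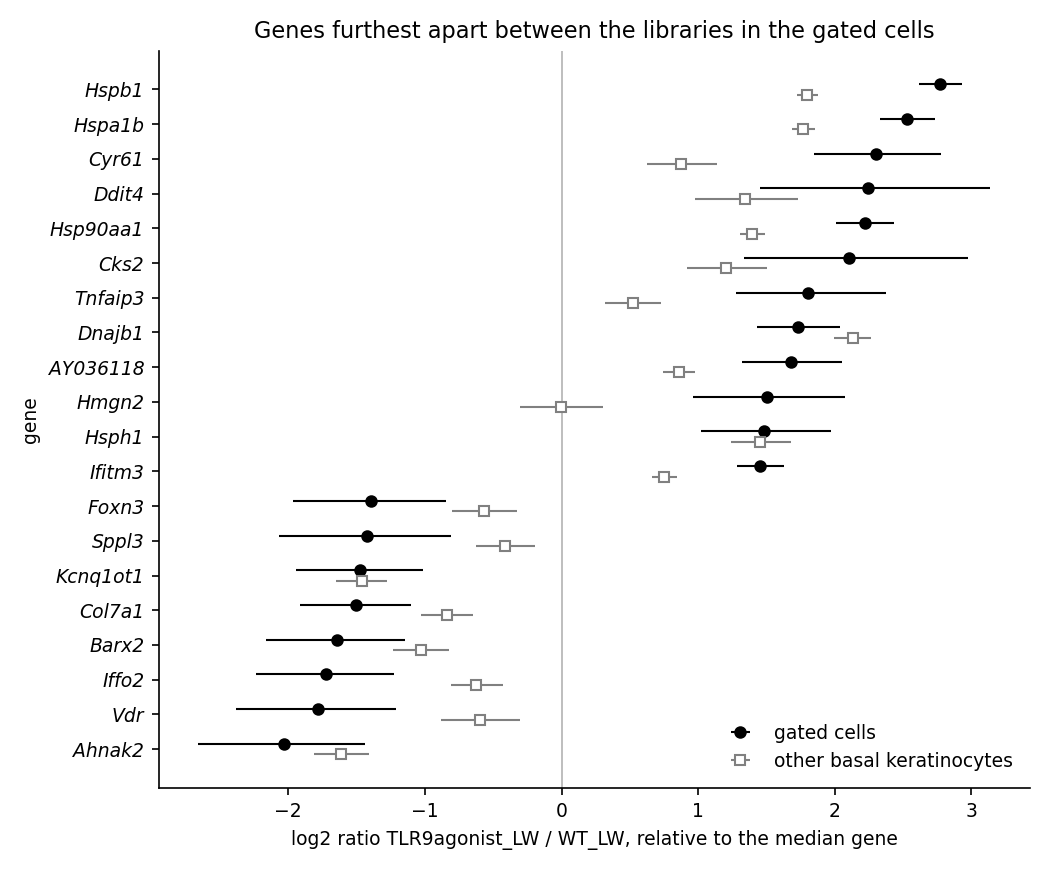
Log2 ratio of TLR9agonist_LW to WT_LW, relative to the median gene of each class, for the 12 highest and 8 lowest genes in gated cells (filled) and in other basal keratinocytes (open), with exact 95% counting intervals. All but Hmgn2 lie on the same side of 0 in both classes.

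Chaperones had the highest ratios of the list of stress genes. Of 28 genes known to respond to tissue dissociation, 27 had 50 UMIs, 8 were higher in TLR9agonist_LW (29.6% of the 27, against 4.90% of all genes), 1 was lower (3.70%, against 5.40%), and the median was 0.23. All 6 heat shock genes of the list were among the 8, with Hspa1a highest at 3.08 (2.83 to 3.34). The other 2 were Ier3 at 1.22 and Gadd45b at 1.06. The immediate early genes lay on both sides of the median gene, with Jund at 0.80, Junb at 0.51 and Jun at 0.32, Egr1 at −0.26, Fos at −0.47 and Fosb, the 1 lower gene, at −1.03. Differences in tissue handling between the libraries were not tested.

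The 2 lists of bulge genes had medians below the median gene. Of 17 regulators of follicle stem cells besides Sox9, 12 had 50 UMIs, 3 were lower (Lhx2, Nfatc1 and Nfib; 3 of 12, against 5.40% of all genes), 1 was higher (Gata3; 8.33%, against 4.90%) and the median was −0.36. Lhx2 stood at −1.96 (−2.99 to −1.01) and Nfatc1 at −1.67 (−2.65 to −0.76). In WT_LW, 1 cell held 12 of the 37 Lhx2 UMIs. The shares of gated cells with Lhx2, 20.6% (8.70 to 37.9) and 12.2% (4.63 to 24.8), had overlapping intervals. Nfatc1 was also in fewer T cells of TLR9agonist_LW, 22.7% against 36.8% in WT_LW, and the part of free RNA was not tested. Without the Lhx2 cells, Lhx2 is absent by the split and Nfatc1 had too few UMIs to be compared. Nfib then stood at 309 and 183 CPM, under 1 log2 unit apart before centring. It stayed past the limit in 10 of the 15 alternatives where it had enough UMIs. Gata3, a factor of the inner root sheath and epidermis, stood at 66.3 and 149 CPM, a ratio of 1.26 (0.75 to 1.78). Krt15, a selecting gene, stood at 1285 and 588 CPM, and Sox9 at 272 and 295.

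Of 24 surface and secreted bulge genes, 12 had 50 UMIs, 1 was lower (8.33%, against 5.40% of all genes), none was higher and the median was −0.35. The lower gene was Sfrp1, a Wnt inhibitor, with 101 UMIs in 20 cells of WT_LW and 30 UMIs in 13 cells of TLR9agonist_LW, a ratio of −2.20 (−2.84 to −1.60). Ptn stood at −0.32 (−0.69 to 0.05), Postn at −0.36 (−0.58 to −0.15) and Cxcl14 at −0.15 (−0.44 to 0.14). Without the Lhx2 cells, Ptn stood at 0.57 and Cxcl14 at 0.85. Without the Krt1 and Krt10 cells, Ptn, Postn and Cxcl14 stood at −0.84, −0.88 and −0.70, and the list had a median of −0.84. In that setting 3 of its 11 genes were lower, against 7.67% of all 2973 genes, and none was higher, against 5.68%.

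Of 10 Wnt genes with 50 UMIs, 3 were lower (Sfrp1, Apc and Wnt4; 30.0%, against 5.40% of all genes), none was higher and the median was −0.49. Wnt4, an epidermal ligand, stood at 352 and 154 CPM, a ratio of −1.11 (−1.42 to −0.80). Of 11 BMP genes none was higher or lower by 1 log2 unit, against 4.90% and 5.40% of all genes. Their median was 0.10, or −0.26 without the Krt1 and Krt10 cells, with 1 of 11 lower against 7.67% of all genes. Of 5 hair germ genes none was past 1 log2 unit either, and at those shares none says little about lists this short. Without the Krt1 and Krt10 cells 1 of 4 was lower (Sostdc1, −1.40), against 7.67% of all genes, which says little about a list of 4. Lef1 had 0 and 1 UMIs, and Shh had 0 in both libraries.

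Of 13 EGF genes with 50 UMIs, 2 were higher (15.4%, against 4.90% of all genes), 1 was lower (7.69%, against 5.40%) and the median was 0.33. Without the Krt1 and Krt10 cells, 1 of 11 was higher (against 5.68% of all genes), 1 was lower (against 7.67%) and the median was −0.23, so neither count stood clear of the share over all genes. Spry2, a feedback inhibitor, stood at 12.3 and 44.8 CPM, and the ligand Epgn at 148 and 303, a ratio of 1.12 (0.78 to 1.47), or 0.98 without those cells. Lrig1, which restrains EGF receptors, stood at 71.0 and 19.2 CPM, a ratio of −1.80 (−2.67 to −0.99). The ligand Areg had 97 UMIs in 11 cells of WT_LW and 215 in 25 cells of TLR9agonist_LW, a ratio of 0.70 (0.35 to 1.06), with 26.8% and 27.0% of them in 1 cell, and 1.15 without the Krt1 and Krt10 cells. Areg was in 32.4% and 51.0% of gated cells, 19.2% and 53.4% of T cells, which can make it themselves, and 8.53% and 36.2% of the cells with 20 or more collagen UMIs. Thinned to 2000 UMIs, these shares were 11.8% and 14.3%, 13.2% and 39.9%, and 2.70% and 11.7%. At equal depth the shares of gated cells in the 2 libraries therefore lay close together, and in TLR9agonist_LW the interval of 5.94 to 27.2% took in the share of those with 20 or more collagen UMIs. The receptor Egfr stood at 0.58 (−0.10 to 1.29). Tlr9 itself had no UMI in any gated cell, which does not exclude a low level, and no toll-like receptor or adaptor gene reached 50 UMIs.

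Genes of the IL-17 and NF-kB response had the highest list median among lists with 10 or more genes at 50 UMIs, and several rested on few cells. The type I interferon list stood higher, at 2.19, but over 3 such genes. Of 11 genes of the IL-17 and NF-kB response with 50 UMIs, 7 were higher (63.6%, against 4.90% of all genes), none was lower and the median was 1.81. Nfkbia, an NF-kB inhibitor and target, had 509 and 1436 UMIs, a ratio of 1.05. The chemokine Ccl20 had 3 UMIs in 2 cells against 151 in 15 cells, of which 1 cell held 42.4%, and Csf3 had 1 against 60 UMIs in 7 cells, of which 1 held 48.3%. S100a9 had 122 UMIs in 8 of 34 cells and 1051 in all 49, with 47.7% in 1 cell. Without the 7 cells rich in Krt1 and Krt10 it had 7 and 510 UMIs, and its ratio moved from 2.66 to 5.19. In other basal cells it stood at 10173 CPM in TLR9agonist_LW and 2152 in WT_LW. The part of free S100a9 in the gated counts was not tested. The receptor subunit Il17ra had 6 and 10 UMIs. Of 11 genes of MHC and the interferon gamma response, 3 were higher (27.3%, against 4.90% of all genes), none was lower and the median was −0.07. The 3 were Cxcl9, Cxcl10 and Psmb8, and without the Krt1 and Krt10 cells 1 of 10 was higher (against 5.68% of all genes), 1 was lower (against 7.67%) and the median was −0.22.

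A single cell of TLR9agonist_LW carried many of the remaining UMIs. It held 30 of the 32 UMIs of Cdh5, a marker of endothelium, and 15 of the 26 of Pecam1. The same cell held 171 of 275 UMIs of Cxcl1, 110 of 210 of Cxcl10, 39 of 56 of Col4a1, 36 of 51 of Col4a2, 26 of 46 of Bst2 and 9 of 11 of Cd34. Another cell of that library held 126 of 137 UMIs of Cxcl9 together with 591 of Krt1 and Krt10, and another all 27 UMIs of the melanocyte gene Dct. Col4a1 and Cxcl9 passed below 0 when each library's top cell was left out, at −0.028 and −0.39; without the Krt1 and Krt10 cells they stood at 0.72 and −1.45. Doublets were not called, and their part was not tested.

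Krt17 was higher in TLR9agonist_LW in both classes. It was present in 29 of 34 and 49 of 49 gated cells, with a median of 5.31 (0 to 55.4) and 8.06 (0.296 to 104) per 10000 UMIs, so the cells of both libraries overlapped over most of their range. Free Krt17 moved the same way, being in 15.1% of T cells in WT_LW and 51.8% in TLR9agonist_LW, and its part was not tested. Its sums stood at 597 and 1675 CPM, a ratio of 1.57 (1.41 to 1.74), and at 751 and 2064 CPM in other basal cells. In TLR9agonist_LW, 1 cell held 349 of the 1569 gated Krt17 UMIs, and in its weakest alternative the gated ratio was 0.62. Of 17 genes of wound keratinocytes with 50 UMIs, 8 were higher (47.1%, against 4.90% of all genes), 1 was lower (Krt6b; 5.88%, against 5.40%) and the median was 0.80. Krt6b moved from −3.41 to 1.65 without the Krt1 and Krt10 cells; Sprr1a and Sprr2d, cornified envelope genes, stood at 2.66 and 2.94.

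The suprabasal genes depended on the Krt1 and Krt10 cells. Of 11 with 50 UMIs, 5 were lower in TLR9agonist_LW (45.5%, against 5.40% of all genes), none was higher and the median was −0.81. Krt1 stood at 3729 CPM in WT_LW and 653 in TLR9agonist_LW, and without the 7 cells with 50 or more Krt1 and Krt10 UMIs at 167 and 172. Krt10 stood at 2762 and 438 CPM, and without them at 62.8 and 162. T cells held Krt1 in 49.3% and 86.9% and Krt10 in 39.3% and 90.2%, and the part of free RNA was not tested. The median of the list without the Krt1 and Krt10 cells was 0.38 over 9 genes. Tslp, an epithelial cytokine, had 369 UMIs in WT_LW, of which 358 were in 1 of these cells, and 84 in TLR9agonist_LW.

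**Figure D5:**
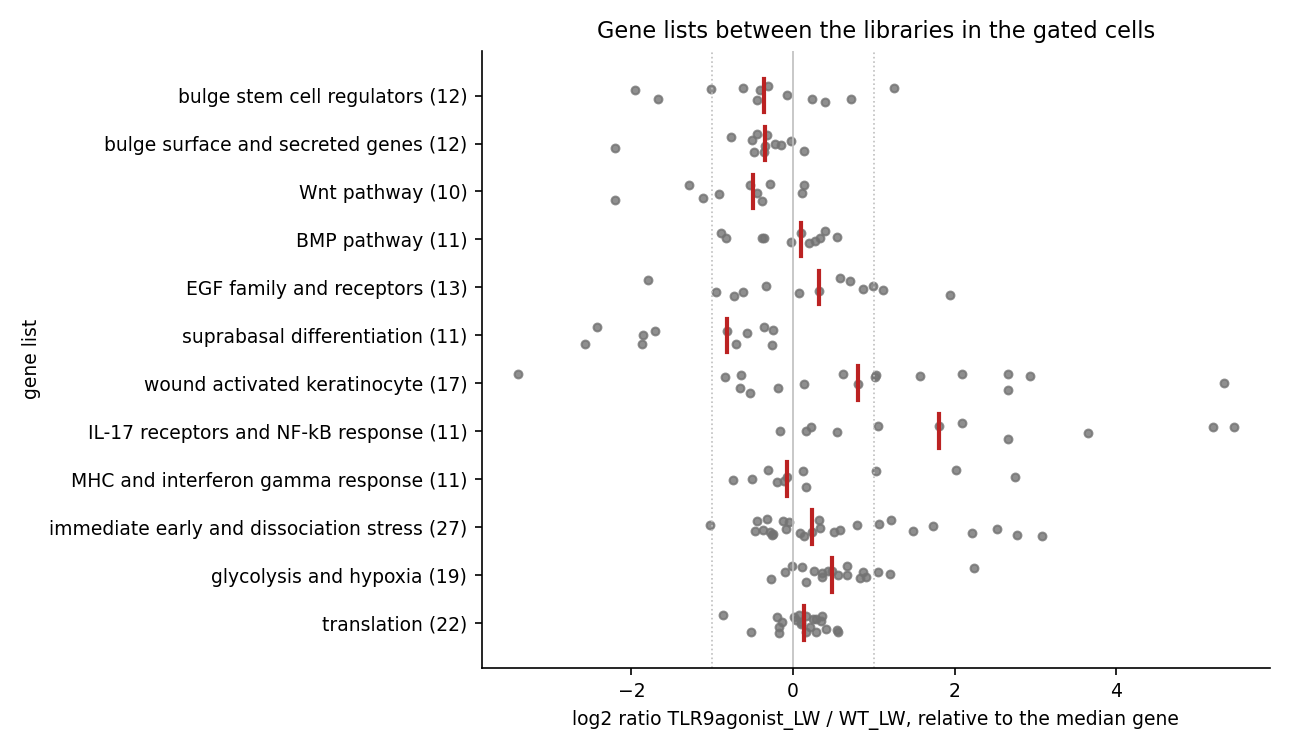
Log2 ratio of TLR9agonist_LW to WT_LW in gated cells, relative to the median gene, for genes with at least 50 UMIs (points) of 12 lists, with the number of genes in brackets and the median as a red bar; dotted lines mark 1 log2 unit. The median is highest for the IL-17 and NF-kB list, 1.81, and lowest for the suprabasal list, −0.81.

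Glycolysis and hypoxia genes leaned to TLR9agonist_LW: of 19 with 50 UMIs, 16 lay above the median gene, 3 were higher by 1 log2 unit or more (Ddit4, Egln3 and Pgk1; 15.8%, against 4.90% of all genes), none was lower and the median was 0.48. Of 22 translation genes none was higher or lower by 1 log2 unit, against 4.90% and 5.40% of all genes, and the median was 0.13. Of 20 genes of hemidesmosomes and basement membrane, 15 had 50 UMIs and the median was −0.14. Col7a1 was lower (6.67%, near the 5.40% of all genes), and Col4a1 and Col4a2, which rested on 1 cell, were higher (13.3%, against 4.90%). Without the Krt1 and Krt10 cells 1 of the 15 was higher (against 5.68% of all genes), 4 were lower (against 7.67%) and the median was −0.54. Among markers of other cell types, fibroblast genes had a median of 0.65 over 6 genes and summed to 1347 and 1572 CPM, immune genes summed to 458 and 303 CPM, and Merkel cell markers to 0 and 5.34 CPM. The Merkel cell markers Krt8 and Krt20 were at 0 in both libraries, and the T cell genes Cd3e and Cd3d had 1 to 2 UMIs.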

How the data were processed

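For both libraries the authors deposited unnormalised UMI counts by gene and cell, while barcode and gene lists only name them. Per the submitters' processing notes, fastp, Cell Ranger and Seurat were used with build mm9; the file headers name cellranger 4.0.0. Members and lists were chosen with earlier results of these data known.

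Cells were gated on counts, and UMIs were summed per library and class. CPM carry exact Poisson intervals, ratios exact conditional binomial intervals and shares Clopper-Pearson intervals, all at 95%. Ratios were taken relative to the median of genes with at least 50 UMIs; a library at 0 was set to 3 counts. With 1 library per group no test was made. Doublets and free RNA were not removed. Thinning drew 2000 UMIs per cell (seed 0). The steps were tested on simulated data (scipy 1.17.1 with numpy 2.4.6 and pandas 2.3.3 in Python 3.11.15; matplotlib 3.10.9 for figures).

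The text names the selecting genes and bulge markers; the 12 highest and 12 lowest ratios among genes with at least 100 UMIs, 10 in each library, a UMI in 10% of cells and no cell with over 20% of them; the 12 genes highest over other basal cells; up to 4 genes per list with the largest ratios; and Areg, Egfr, Tlr9, Il17ra, Krt17 and Msx2. Msx2 had 0 and 4 UMIs. Other genes, and the groups of cells set by Lhx2 or by Krt1 and Krt10, were named after their values were seen. In all, 33 lists were summarised, and promoter sequences came from RefSeq on GRCm38.p6, a build other than that of the notes. Alternatives changed the depth, mitochondrial, Krt15, Sox9, Krt79 and collagen limits, gated per 10000 UMIs or after thinning, left out cells with foreign markers or the top cell of each gene, weighted cells equally, lowered the gene minimum to 20 UMIs or left ratios uncentred. Leaving out the Krt1 and Krt10 cells, or the Lhx2 cells, was added after seeing the data. Of the 12 lowest genes, those after the first 8 are not reported here.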

Additional observations from a re-analysis of the deposited data

How the results depend on the processing

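No paired analysis was possible because each group is 1 library. The share of gated cells among cells within the limits had a log2 ratio of −3.25 with a collagen limit of 5 UMIs, which left 8 cells in WT_LW and 1 in TLR9agonist_LW and allowed no comparison of genes. Among keratinocytes the ratio was −1.58 with that limit and −1.52 when gated per 10000 UMIs. The 168 genes higher in TLR9agonist_LW became 94 when gated after thinning to 2000 UMIs and 442 with a gene minimum of 20 UMIs. The 185 lower genes became 313 with equal weight per cell and 490 with the minimum of 20. The 93 genes higher than in other basal cells became 36 and 206 under thinning and the minimum of 20. Only 28 of the 94 genes under thinning were among the 168. Under the other alternatives tried these counts stayed within 1.5 times their value.

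Of 69 named genes past 1 log2 unit, 34 stayed past it in the same direction under each of the 16 alternatives in which they had enough UMIs (17 of 36 higher and 17 of 33 lower), Hspb1, Hspa1b, Vdr and Col7a1 among them. Some changed sign. When gated after thinning, the log2 ratio was −0.35 for Cks2, −2.44 for Cxcl1, −0.31 for Cxcl10, 4.76 for Krt1, 5.20 for Krt10, 3.92 for Krt6b, 0.020 for Pkp1, −0.047 for Tgif1 and 1.44 for Tslp. When gated per 10000 UMIs it was −1.86 for Cxcl10, 0.20 for Krt1, 1.03 for Krt10 and −0.27 for Psmb8. Without each library's top cell it was −0.028 for Col4a1, −0.39 for Cxcl9 and 1.40 for Tslp, and with equal weight per cell −0.36 for Col4a1. Without the Krt1 and Krt10 cells it was 0.14 for Krt1, 1.46 for Krt10, 1.65 for Krt6b and 3.39 for Tslp. With no Krt79 UMI allowed it was 0.069 for Krt10, and with at least 2 Sox9 UMIs 2.50 for Tslp. The cause was not tested. The 34 and 49 cells, and 1 library a group, limit every value here to these libraries.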

Other observations

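Irx4, a homeobox gene outside the lists, also stood above other basal keratinocytes in the gated cells of both libraries, and was chosen here after its values were seen. It stood at 54.0 CPM (37.6 to 75.1) in gated against 10.1 in other basal cells of WT_LW, with a UMI in 19 of 34 gated cells, and at 20.3 (12.2 to 31.7) against 2.92 CPM in TLR9agonist_LW, with a UMI in 12 of 49.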
